A study of Mus musculus with 33 samples.

Results

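The experiment described here compared the whole main olfactory epithelium of mice exposed to odor with that of mice exposed to water. Its members were chosen by treatment label and took in 6 of the 33 samples of the series: RNA-seq libraries from animals that were wild type (WT) for Dnmt3a, heterozygous for a null allele (Het) or homozygous for it (KO), with 1 water and 1 odor library per genotype. Each genotype gave 1 pair, so odor was compared with water within 3 pairs. All animals were 3 weeks old. They spent 10 min in a clean cage inside a dark cabinet. A paper carrying 80 µL of liquid was then left with them for 60 min. For the water group this was water, and for the odor group it was amyl acetate, acetophenone and octanal in equal volumes, pure odorants with fruity, floral and citrus-like smells. The 2 treatments were given in separate cages and cabinets, so the effects of cage and of odor cannot be told apart. The labels gave neither the number nor the sex of the animals behind a library nor the part of Dnmt3a that was removed. The null alleles were present in both treatments, and they were not limited by the labels to 1 cell type.

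The main olfactory epithelium is the sheet of the nasal cavity that detects odors. Each of its mature sensory neurons expresses a single odorant receptor from a very large gene family, and binding of an odorant opens cation channels through G protein and cyclic AMP signaling. Firing and calcium entry in neurons switch on immediate early genes, whose transcription starts from factors already present in the cell. Many of their products are short-lived transcription factors such as Fos and Egr1, and others are phosphatases and repressors that limit the same signaling. The epithelium also holds globose and horizontal basal stem cells, sustentacular supporting cells, microvillous cells, mucus-secreting Bowman glands and immune cells.

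Values are given on the deposited RPKM scale, which relates reads to the length of the gene and the depth of the library, in the order WT, Het and KO. Whole reads recovered from these values came to 9410063 to 17639584 per library, with a median of 222 to 396 per gene. All 14613 genes with deposited values had reads in each of the 6 libraries. Genes with no reads in some library are therefore absent, and shares of all genes refer to the 14602 tested among those present. Reads limit the precision of the low values named below, and a read number here covers counting error only. Dnmt3a itself was 84.4, 50.3 and 56.1 with water and 89, 66.6 and 48.3 with odor, and was still counted in KO. Several libraries stood apart in tissue content. Omp, the defining marker of mature sensory neurons, was 5962, 1582 and 3296 with water and 2717, 249 and 5752 with odor, so the Het odor library held the least and the WT water and KO odor libraries the most. In the KO odor library the muscle genes Acta1, Myh1 and Ckm were at 147.5, 73.2 and 127.7, against at most 14.4, 3.06 and 31.5 in the other 5 libraries. The bone gene Bglap was at 251 in the KO odor library and at 1017 to 2159 in the others. The 4 Y-linked genes measured were counted in all 6 libraries and were lowest in Het odor, where Ddx3y was 44.0 against 72.7 to 117.1 elsewhere. In RNA from whole tissue, fewer cells of a type and less RNA per cell cannot be told apart.

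Fos and Egr1 were higher with odor by more than the spread between pairs, and these were the 2 genes to pass the test among 14602 (limma, two-sided, Benjamini-Hochberg adjusted p under 0.05). They are 0.0137% of the genes, and the share called lower was 0%. Before adjustment, 439 higher and 272 lower genes had p under 0.05 in the same limma fit, together 4.87% of the genes, and the smallest adjusted p among lower genes was 0.819. Leaving out the Het pair ended both calls, with limma adjusted p of 0.214 (Fos) and 0.0737 (Egr1), as did leaving out the KO pair, with 0.167 and 0.117. So did a fit with no mean-variance trend, with 0.444 and 0.402, and both genes were higher in each fit. The test had 3 pairs and 2 residual degrees of freedom, and limma moderates each gene's error towards that of genes at a similar level. Changes shared by all 3 pairs were also counted without a test. Over all genes, 2273 (15.6%) were higher with odor in every pair and 1736 (11.9%) lower. At least 1.5-fold in every pair, 95 genes (0.651%) were higher and 50 (0.342%) lower. At least 2-fold in every pair, 27 genes (0.185%) were higher and 14 (0.0959%) lower. Without regard to pairs, every odor library was above every water library for 7.77% of all genes and below for 4.75%.

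Over all genes the odor effects of the 3 pairs were weakly related. Between 1387 genes in the KO pair and 1798 in the WT pair differed at least 2-fold between odor and water. Across genes, which are not independent, the log2 odor effects had a Pearson r of 0.14 between WT and Het, -0.23 between WT and KO and -0.06 between Het and KO. The effects had the same sign in WT and KO for 47.4% of genes. At 2-fold in both of these pairs, 81 genes were higher in both, 67 lower in both and 428 moved in opposite directions. The median log2 effect over all genes lay between -0.01 and 0.03 in the 3 pairs.

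**Figure D1:**
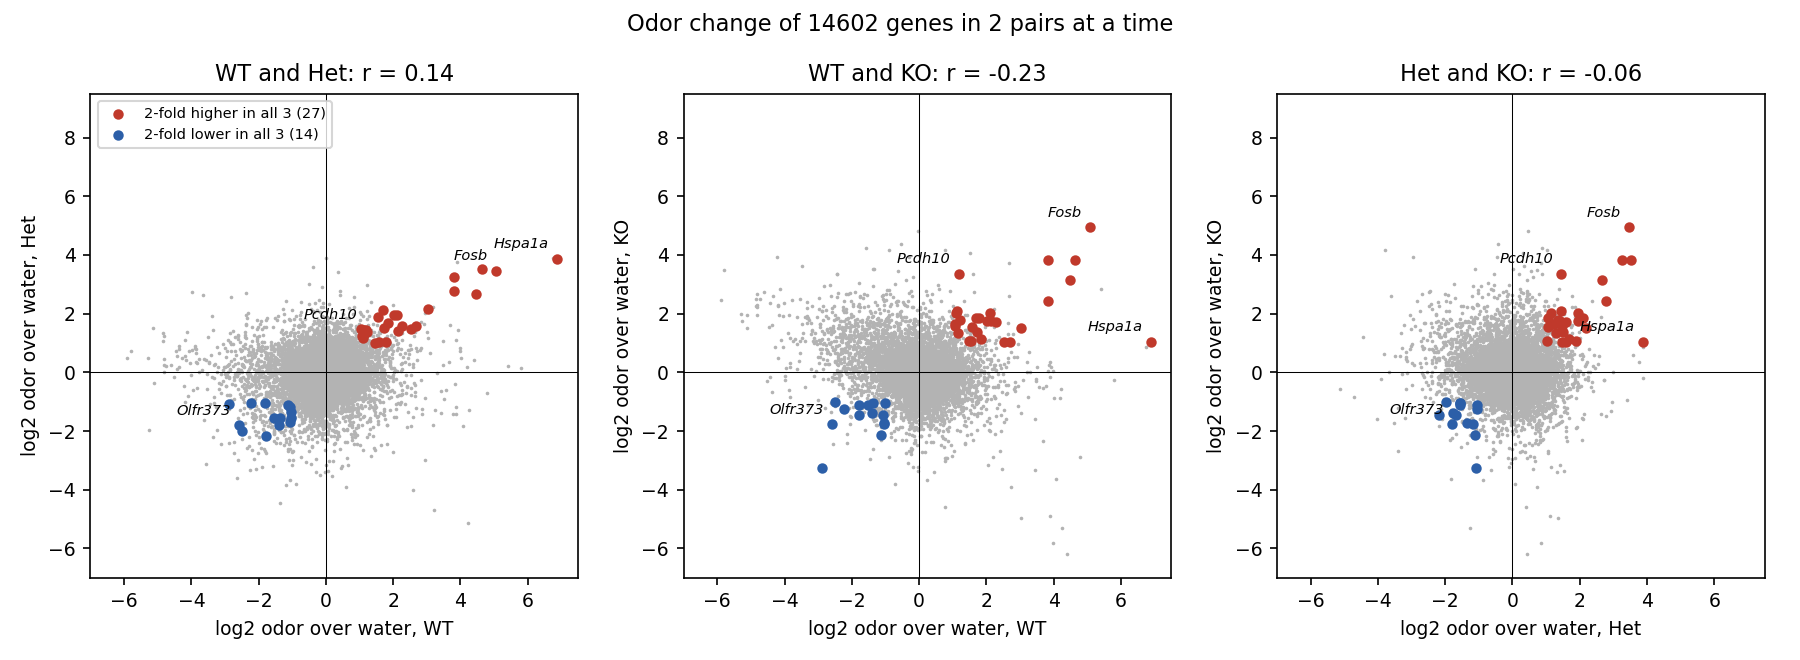
Log2 odor over water of 14602 genes (grey) in 1 pair against another, with the 27 genes at least 2-fold higher in all 3 pairs in red and the 14 at least 2-fold lower in blue. The grey clouds have correlations of 0.14, -0.23 and -0.06, while Fosb and the other highest red points lie far from 0 in every panel, and Hspa1a lies far out along the WT axis.

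The transcription factors of the immediate early response made up the top of the shared set. Fos (ENSMUSG00000021250) had values of 20.7, 29.2 and 22.4 with water and 523, 341 and 322 with odor, which limma estimated as a log2 change of 3.99 ± 0.25 (SE, 3 pairs) with an adjusted p of 0.0454. Egr1 (ENSMUSG00000038418), a zinc finger factor, was 44.8, 63 and 27.8 with water and 639, 606 and 399 with odor, with limma's log2 change at 3.63 ± 0.18 and its adjusted p at 0.0249. For both genes the lowest odor library was several times above the highest water library. Fosb, the dimer partner of Jun proteins next in rank, was 17, 51.9 and 12.6 with water and 587, 576 and 401 with odor. Its log2 fold change of 4.49 ± 0.34 was the largest of any gene named here, but it did not pass (limma adjusted p = 0.0722). Het water was higher than the other water libraries, and all odor libraries were above all water libraries.

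The orphan nuclear receptors of the Nr4a family followed. Nr4a1 was 66.9, 118 and 78.7 with water and 1498, 749 and 698 with odor, and Nr4a3 was 5.13, 11.9 and 4.02 with water and 78.9, 84.7 and 24.1 with odor. Their log2 fold changes were 3.43 ± 0.35 and 3.01 ± 0.34 (limma adjusted p = 0.276 and 0.307). The odor libraries lay above all water libraries for both genes, with the highest Nr4a1 value in WT odor. The third member, Nr4a2, stayed under 2-fold in KO, with 15.2, 19.1 and 13 with water and 61.3, 95.1 and 22.8 with odor.

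Junb, an AP-1 subunit, was 27.9, 45.4 and 19 with water and 92.6, 129 and 50.3 with odor, with log2 effects of 1.71, 1.498 and 1.38 that differed little between pairs (1.53 ± 0.19, limma adjusted p = 0.381). Maff, a small Maf factor, was 17.1, 9.22 and 14.3 with water and 51, 35.5 and 30.1 with odor. Egr2 was low throughout, at 1.23, 1.07 and 0.274 with water and 7.01, 5.62 and 2.66 with odor, and rested on 3 to 105 recovered reads per library. In all 3 genes each odor library lay above each water library. Npas4, a factor that responds to calcium entry in neurons, was 7.83, 22.7 and 8.93 with water and 32.4, 38.2 and 32.2 with odor, and its odor effect in Het was the weakest at a log2 of 0.74.

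Of 32 immediate early transcription factors measured, 25 were higher in all 3 pairs (78.1%, against 15.6% of all genes), none was lower in all 3 and 2 passed the test. The median log2 effect of the list was 1.27, 0.87 and 0.45, against -0.01, 0.03 and 0.03 over all genes. The 7 with mixed signs were Srf, Klf2, Klf6, Klf10, Crem, Cebpb and Bhlhe40. Some factors had an odor effect in WT and Het that was small in KO. Atf3, a stress-responsive factor, had log2 effects of 3.89, 3.76 and 0.35, and Ier2 had 2.13, 0.82 and 0.47. The difference between genotypes was not tested for any gene, since each genotype had a single pair.

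**Figure D2:**
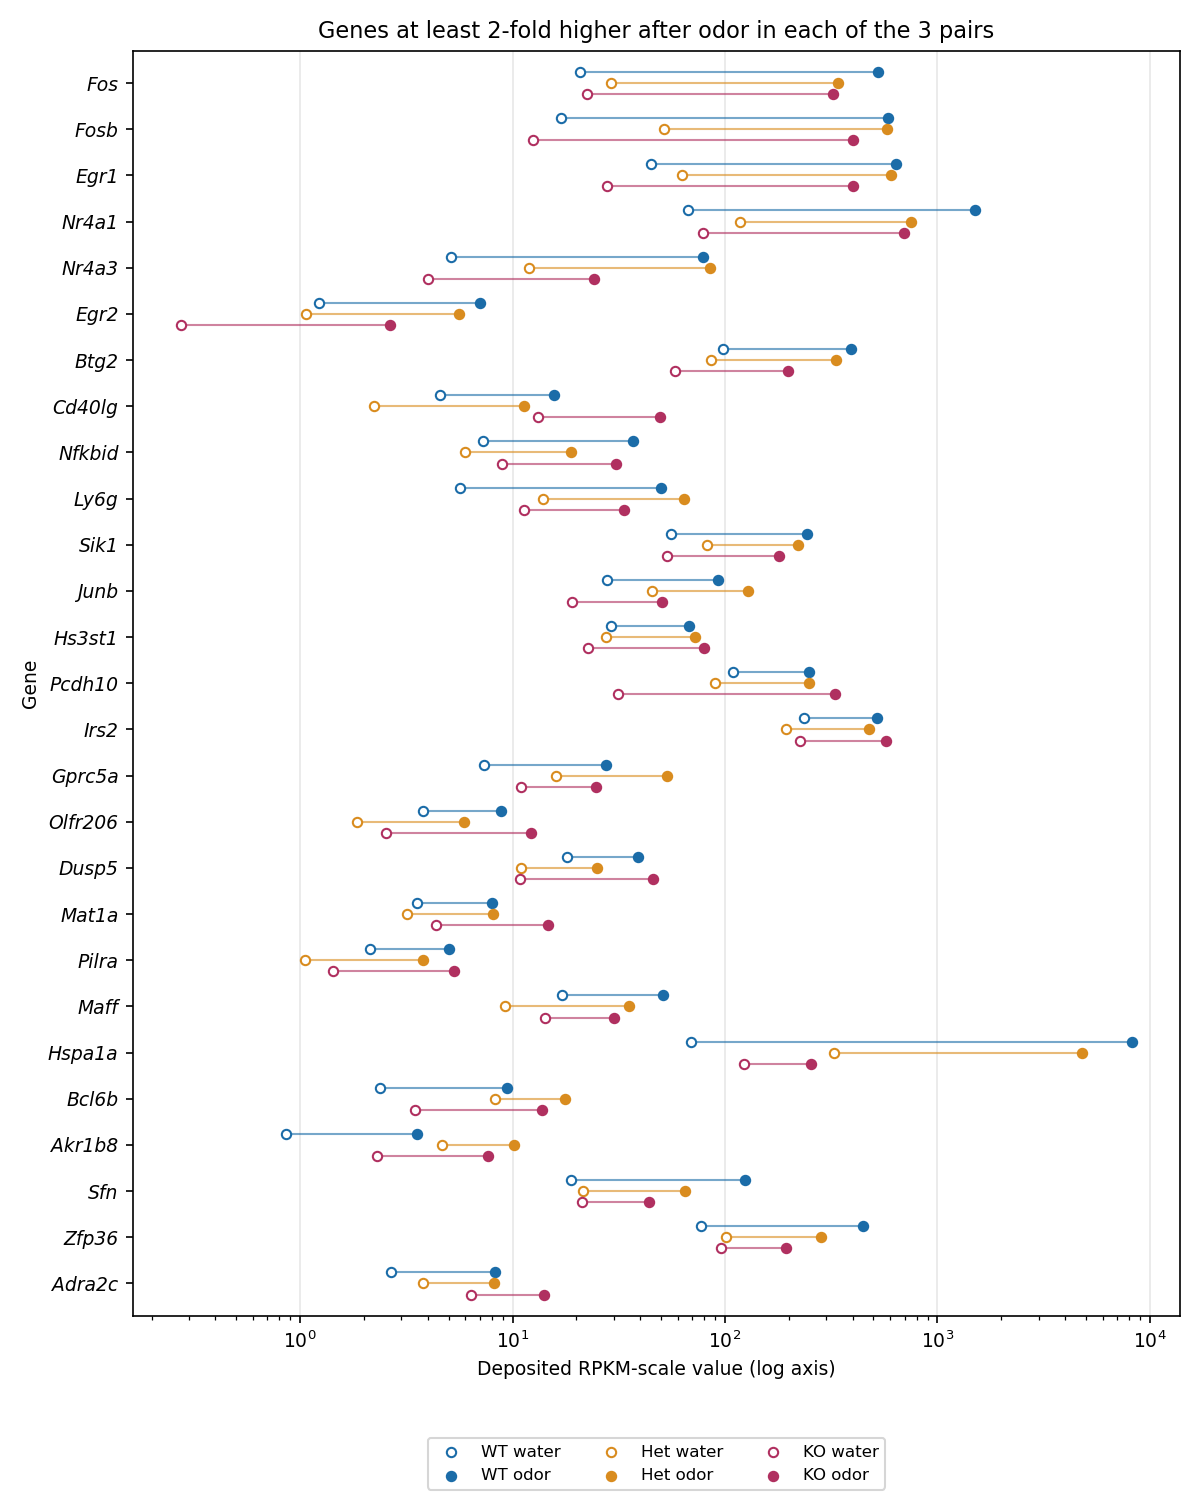
Deposited RPKM-scale values (log axis) of the 27 genes at least 2-fold higher with odor in each pair, with open circles for water, filled circles for odor and 1 color per genotype. Water and odor values do not overlap for 24 of the 27 genes (7.77% of all genes in this direction), which were chosen for higher values in every pair, and the exceptions are Cd40lg, Hspa1a and Akr1b8.

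Cyclic AMP and calcium act on immediate early genes through CREB, which binds the cyclic AMP response element (CRE), and serum response factor binds the CArG box. The 250 bases before the start of each gene were searched for these letters in RefSeq promoters of the build GRCm38.p6, which held a window for 21 of the 27 genes. The short CRE, TGACG or CGTCA as read on both strands, was found in 11 of 21 windows (52.4%), against 27.5% of 10719 tested genes with a window and 17.8% of all 32851 windows. The full CRE, TGACGTCA, which also contains the short site, was found in 3 (14.3%), Btg2, Maff and Nfkbid, against 2.85% of tested genes and 1.55% of windows. The CArG box was found in 3 (Dusp5, Egr2 and Zfp36), against 1.44% and 1.47%. A heat shock core, GAANNTTC, the same on both strands, was found in 3 (Hspa1a, Nfkbid and Pcdh10), against 6.35% and 6.69%. A match is a description of the letters and not a measured binding site. The last 170 bases before the start follow for 6 genes of the set, 5′ to 3′ in the direction of transcription, with matches in capitals: Fos, Fosb and Nr4a1 for short sites, Btg2 for the full site, Dusp5 for CArG boxes beside a short CRE, and Hspa1a for a heat shock core with no CRE.
Fos, chr12:85473720-85473889, plus strand: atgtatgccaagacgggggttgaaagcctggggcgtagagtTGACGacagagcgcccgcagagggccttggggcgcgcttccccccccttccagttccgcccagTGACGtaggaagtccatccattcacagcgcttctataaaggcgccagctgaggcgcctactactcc
Fosb, chr7:19310046-19310215, minus strand: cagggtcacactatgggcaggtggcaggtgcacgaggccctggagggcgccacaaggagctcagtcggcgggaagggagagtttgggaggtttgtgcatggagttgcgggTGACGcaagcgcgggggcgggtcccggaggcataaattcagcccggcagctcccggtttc
Nr4a1, chr15:101266676-101266845, plus strand: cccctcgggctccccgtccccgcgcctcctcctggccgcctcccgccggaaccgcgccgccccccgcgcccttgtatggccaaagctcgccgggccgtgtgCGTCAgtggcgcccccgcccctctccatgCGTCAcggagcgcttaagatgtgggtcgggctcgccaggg
Btg2, chr1:134079156-134079325, minus strand: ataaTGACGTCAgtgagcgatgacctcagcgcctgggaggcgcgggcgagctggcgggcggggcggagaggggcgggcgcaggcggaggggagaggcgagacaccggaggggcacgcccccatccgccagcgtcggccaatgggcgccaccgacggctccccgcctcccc
Dusp5, chr19:53528975-53529144, plus strand: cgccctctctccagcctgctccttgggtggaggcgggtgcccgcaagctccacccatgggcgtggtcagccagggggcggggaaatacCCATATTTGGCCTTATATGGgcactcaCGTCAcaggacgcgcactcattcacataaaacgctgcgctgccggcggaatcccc
Hspa1a, chr17:34972157-34972326, minus strand: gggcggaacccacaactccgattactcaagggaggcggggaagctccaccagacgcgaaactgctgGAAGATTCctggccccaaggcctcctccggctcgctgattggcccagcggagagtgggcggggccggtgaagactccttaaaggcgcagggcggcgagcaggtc
Fos held its matches 129 to 125 and 66 to 62 bases before the start, and Nr4a1 held 2 as well, at 69 to 65 and 40 to 36. In Dusp5 the 2 CArG boxes lay side by side at 82 to 73 and 72 to 63.

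The second group of shared genes came from a list of induced regulators, many of which limit signaling or the messages of early genes. Btg2, an antiproliferative regulator of mRNA decay, was 97.4, 85.9 and 58.5 with water and 394, 333 and 198 with odor, and its log2 effects of 2.01, 1.95 and 1.75 were close to each other (1.90 ± 0.15, limma adjusted p = 0.0722). Sik1, a cyclic AMP-induced kinase that holds back CREB coactivators, was 55.4, 82.4 and 53.6 with water and 244, 219.9 and 180.4 with odor (1.76 ± 0.19, limma adjusted p = 0.279). Irs2, an adaptor of insulin receptors, was 236, 193 and 226 with water and 522, 475 and 572 with odor (1.26 ± 0.14, limma adjusted p = 0.279). For these 3 genes every odor library lay above every water library, and Irs2 had the narrowest range of effects between pairs at 1.14, 1.29 and 1.34.

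Nfkbid, a nuclear regulator of NF-kB, was 7.24, 5.96 and 8.92 with water and 36.9, 18.8 and 30.8 with odor, and Zfp36, which destabilizes mRNAs of cytokines and early genes, was 77.5, 101 and 95.9 with water and 448, 283 and 195 with odor. Dusp5, a phosphatase that inactivates nuclear ERK, was 18.1, 10.9 and 10.8 with water and 39, 25 and 45.8 with odor. Among these, Zfp36 had its largest effect in WT and Dusp5 in KO. Dusp1, a broader MAP kinase phosphatase, stayed under 2-fold in Het only, with 109, 78.1 and 77.2 with water and 284, 133 and 208 with odor.

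Of 36 induced feedback regulators measured, 20 were higher in all 3 pairs (55.6%, against 15.6% of all genes) and 2 lower (5.56%, against 11.9%). None passed the test. The list's median log2 effects were 0.74, 0.64 and 0.40. The 2 lower genes were Gadd45a, a growth arrest gene, at 95.7, 86.4 and 76.7 with water and 64, 70.4 and 64.2 with odor, and Rnd3, a small GTPase, at 63.4, 48.7 and 57.2 with water and 37.1, 44.5 and 48.5 with odor. Of the relatives of Gadd45a, Gadd45b had log2 effects of 0.75, 0.88 and 0.32, and Gadd45g had 0.35, 0.76 and -1.87.

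Effector genes that neurons induce later or that act at synapses and axons were mixed. Of 25 measured, 5 were higher in all 3 pairs (20.0%, against 15.6% of all genes), 1 was lower and none passed the test. Pcdh10, a protocadherin with a role in axon sorting, was 109, 90.02 and 31.4 with water and 248, 248 and 329 with odor, with log2 effects of 1.18, 1.46 and 3.37. Its odor libraries lay close together and above all water libraries, and KO water was the lowest. Arc, a regulator of synaptic receptors, was 21.8, 68.9 and 24 with water and 77.6, 165 and 41.8 with odor, and Sema7a, a membrane-bound semaphorin, was 138, 78 and 123 with water and 222, 132 and 308 with odor. Arc was highest and Sema7a lowest in the Het libraries, so water and odor values overlapped although each odor library was above its own water library.

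The other 2 of the 5 were Efna5, an ephrin ligand, with log2 effects of 0.37, 0.60 and 0.53, and the repressor Bcl6, with 0.44, 0.34 and 0.45. Ptgs2, the inducible cyclooxygenase, was the member lower in all 3 pairs, at 3.21, 2.92 and 0.921 with water and 0.713, 1.98 and 0.813 with odor, from 3 to 14 reads. In KO it had 3 reads with water and 3 with odor. Bdnf, a neurotrophin that is a common marker of neuronal activity, was at 0.602 or less in every library. S100a5, a calcium-binding protein that is abundant in sensory neurons, was 13119, 3941 and 8746 with water and 7712, 1785 and 8822 with odor, lower with odor in WT and Het and level in KO.

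Genes of axon targeting overlapped this list in part. Of 23 measured, 8 were higher in all 3 pairs (34.8%, against 15.6% of all genes) and 2 lower (8.70%, against 11.9%). None passed the test. Sema3f, a repellent secreted by sensory axons, was 39.8, 29.4 and 35.5 with water and 62.5, 62.6 and 48.3 with odor. Robo1, a receptor for Slit proteins, was 256, 276 and 253 with water and 287, 322 and 326 with odor, and Slit1 and Slit2 had log2 effects of 0.20, 0.13 and 0.18 and of 0.12, 0.16 and 0.17. Efna3 and the adhesion molecule Ncam2 were lower, with log2 effects of -0.40, -0.09 and -0.13 and of -0.34, -0.32 and -0.17. Apart from Pcdh10 these effects were under 2-fold in at least 1 pair.

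Of the 27 genes at least 2-fold higher, 15 belonged to the 3 lists of activity-related genes above. These lists have 93 measured members together among the 14602 genes tested. Their members were chosen with earlier results of these data known, so the overlap was in part given in advance. The others of the 27 were Cd40lg, Ly6g, Hs3st1, Gprc5a, Olfr206, Mat1a, Pilra, Hspa1a, Bcl6b, Akr1b8, Sfn and Adra2c. Hs3st1, a heparan sulfate sulfotransferase, was 29, 27.7 and 22.6 with water and 68.1, 71.9 and 79.7 with odor, and limma gave a log2 difference of 1.46 ± 0.21 with an adjusted p of 0.819. Sfn, an epithelial 14-3-3 protein, was 18.9, 21.4 and 21.3 with water and 125, 65.1 and 43.8 with odor, and Gprc5a, an epithelial orphan receptor, was 7.3, 16.1 and 11 with water and 27.4, 53.3 and 24.8 with odor. The water and odor ranges of these 3 genes were apart, with the highest odor value in KO for Hs3st1, in WT for Sfn and in Het for Gprc5a.

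Cd40lg, a ligand of activated T cells, was 4.56, 2.24 and 13.2 with water and 15.8, 11.3 and 49.4 with odor, and Ly6g, a neutrophil surface protein, was 5.66, 13.9 and 11.4 with water and 49.8, 64.3 and 33.4 with odor. They had 3 to 55 and 2 to 29 reads per library, so these levels were imprecise. Bcl6b, a repressor related to Bcl6, was 2.38, 8.25 and 3.47 with water and 9.39, 17.6 and 13.8 with odor. Ly6g and Bcl6b were higher in every odor library than in any water library, and for Cd40lg the KO water library stood above Het odor.

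Mat1a, which makes S-adenosylmethionine, Pilra, a receptor of myeloid cells, Akr1b8, an aldo-keto reductase, and Adra2c, an adrenergic receptor, stayed under 15 in every library, with 2 to 42 reads each. Olfr206 was the single odorant receptor of the set, at 3.78, 1.85 and 2.53 with water and 8.82, 5.93 and 12.3 with odor, from 2 to 11 reads. Just outside the 2-fold limit were Folr1, a folate receptor, Sele, an endothelial selectin, and the cytokine Il1a, with smallest log2 effects of 0.99, 0.95 and 0.95. Just inside it was Adra2c, with a smallest log2 effect of 1.01.

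The 95 genes at least 1.5-fold higher included some with many more reads. Tle3, a transcriptional corepressor, was 78.9, 73.1 and 82.9 with water and 137, 131 and 141 with odor, from 3128 to 8412 reads, and its log2 effects were 0.79, 0.83 and 0.76. Uncx, a homeobox factor, was 77.1, 51.8 and 74.6 with water and 133, 111 and 150.2 with odor, and Pcdh8, an activity-regulated protocadherin, was 70.2, 59.2 and 77.7 with water and 219, 162 and 129 with odor. These 3 had water and odor ranges that did not overlap. Thbs1, a secreted matrix protein, was 125, 164 and 164 with water and 255, 251 and 328 with odor, and Fgf20, a growth factor, was 12, 25.3 and 23.4 with water and 85.4, 43.3 and 58.2 with odor. Of the 95 genes, 23 belonged to the 3 activity-related lists, which hold 93 of the 14602 genes tested and were chosen with earlier results known.

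Heat shock genes held the largest effect of a single pair among the 27 genes. Hspa1a, an inducible Hsp70, was 69.5, 327 and 123 with water and 8255, 4808 and 255 with odor, and its near copy Hspa1b was 45.2, 192 and 76.5 with water and 4931, 2853 and 139.8 with odor. How reads shared by the 2 copies were assigned is not stated, so their values are uncertain apart from each other. The log2 effects of Hspa1a were 6.88, 3.88 and 1.05, and its fold change of 3.94 ± 1.01 did not pass (limma adjusted p = 0.882). KO odor lay below Het water, so the groups overlapped.

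The cochaperone Dnajb1 was 69.5, 66.8 and 72.3 with water and 640.4, 316 and 73.3 with odor, well above water in WT and Het and level in KO. Of 23 heat shock chaperones, 3 were higher in all 3 pairs (13%, against 15.6% of all genes) and 2, Hsf2 and Hspa4l, lower. None passed the test. The list's median log2 effect was 0.54, 0.41 and -0.35. Hspb1, a small heat shock protein, had log2 effects of 2.94, 2.02 and -0.46, and Hspa8, the constitutive Hsp70, had 0.83, 0.62 and -0.39. Both were higher with odor in WT and Het and lower in KO, and the difference between genotypes was not tested.

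Lists of chemical and cellular stress had no member past the test. Of 22 genes of the Nrf2 and electrophile response, 5 were higher in all 3 pairs (22.7%, against 15.6% of all genes). These were Akr1b8, Osgin1, G6pdx, Txnrd1 and Abcc1, and 1 member was lower (4.55%, against 11.9%). Osgin1, an oxidative stress-induced growth inhibitor, was 16.3, 28.8 and 34.9 with water and 126, 92 and 50.8 with odor, with log2 effects of 2.91, 1.66 and 0.54. G6pdx, which supplies NADPH, was 530.1, 588 and 609 with water and 673, 905 and 713 with odor. The lower member was the cystine carrier Slc7a11, at 38.8, 38.4 and 18.6 with water and 15.1, 30.4 and 13.2 with odor. Of 18 genes of the unfolded protein and integrated stress responses, 5 were higher in all 3 pairs (27.8%, against 15.6% of all genes) and 3 lower (16.7%, against 11.9%). The lower ones were Ddit3, Trib3 and Ddit4, and Ddit3, a factor of the integrated stress response, was 174, 167 and 181 with water and 102, 144 and 124 with odor. The higher ones included Xbp1 and Herpud1 with log2 effects of 0.77, 0.13 and 0.29 and of 0.29, 0.19 and 0.37.

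The olfactory epithelium is rich in enzymes that modify inhaled chemicals. Of 26 such xenobiotic enzymes measured, 6 were higher in all 3 pairs (23.1%, against 15.6% of all genes), none lower and none past the test. Ces1d, a carboxylesterase, was 1001, 1289.5 and 1346 with water and 1700.0, 1784 and 1685 with odor, and Por, the electron donor of cytochromes P450, was 521, 628 and 719.9 with water and 947, 1010.2 and 761 with odor. Cyp2a5 and its near copy Cyp2a4 were among the most abundant, Cyp2a5 at 8733, 13618 and 12419 with water and 17676, 15272 and 13908 with odor. The log2 effects of Cyp2a5 were 1.02, 0.17 and 0.16, and WT water was the lowest library.

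Genes induced by glucocorticoids, the hormones of stress, and genes of the circadian clock shared Per1, a clock repressor that is also an early gene. Per1 was 34.1, 42.2 and 40.3 with water and 98.5, 102 and 68.9 with odor, with log2 effects of 1.52, 1.26 and 0.76. Of 17 glucocorticoid-induced genes, 6 were higher in all 3 pairs (35.3%, against 15.6% of all genes) and 1, Ddit4, lower (5.88%, against 11.9%). Besides Per1 the higher ones were Errfi1, Pdk4, Arrdc2, Lcn2 and Tsc22d3, the last with log2 effects of 0.01, 0.03 and 0.07. The other 10 were mixed, and the list's median log2 effects were 0.22, 0.15 and 0.46. Of 16 clock genes, 5 were higher (31.2%, against 15.6%), Per1, Hlf, Cry2, Per2 and Nr1d1, and Bhlhe41 was lower (6.25%, against 11.9%). Cry2, a clock repressor, was 95, 87.1 and 105 with water and 149, 122 and 131 with odor. The time of day of each exposure is not given in the labels, and no member of either list passed the test.

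Of 15 cytokines and NF-kB targets measured, 6 were higher in all 3 pairs (40%, against 15.6% of all genes) and none passed the test. Ptgs2 was lower (6.67%, against 11.9%), and the list's median log2 effects were 0.59, 0.12 and 0.19. The higher genes were Nfkbid, Il1a, Nfkbiz, Il1b, Nfkb2 and Nfkb1. Il1b, an inflammatory cytokine, was 24.3, 31.1 and 46.7 with water and 50.8, 48.5 and 58.8 with odor, and the others besides Nfkbid and Il1a had log2 effects between 0.12 and 1.19.

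**Figure D3:**
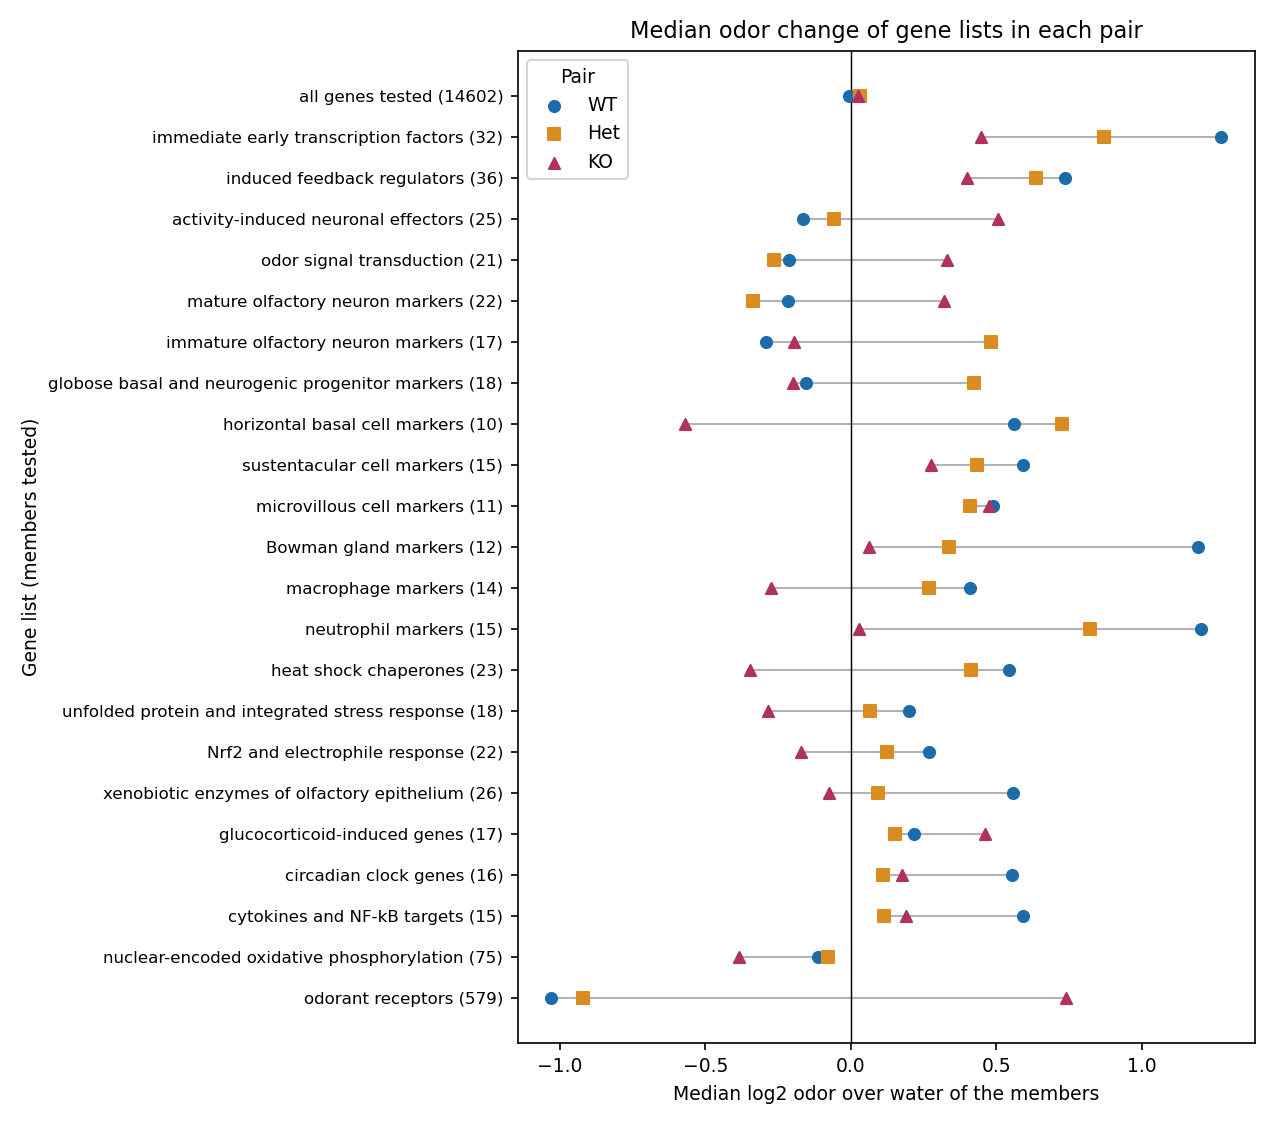
Median log2 odor over water of each gene list in the WT pair (circles), the Het pair (squares) and the KO pair (triangles), with the number of members tested in brackets and a grey line over the range. The immediate early and feedback lists lie above 0 in all 3 pairs (0.45 to 1.27 and 0.40 to 0.74), while odorant receptors lie at -1.03 and -0.92 in WT and Het and at 0.74 in KO.

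Fewer genes were at least 2-fold lower in every pair than higher. None passed the test, and 6 of the 14 genes at least 2-fold lower were odorant receptors, which make up 3.97% of the genes tested. That share is not a like background for the 6, since the median log2 effect of all receptors was already -1.03 in WT and -0.92 in Het. Among the others, Haus1, a subunit of the augmin complex of the mitotic spindle, was 205, 179 and 133 with water and 43.1, 86.8 and 55.9 with odor, from 44 to 216 reads (-1.51 ± 0.26, limma adjusted p = 0.882). Smc1b, a meiotic cohesin, was 10.6, 12.5 and 7.88 with water and 2.68, 5.72 and 3.34 with odor, and Mnd1, a meiotic recombination factor, was 9.79, 74.6 and 39.3 with water and 4.51, 29 and 11.6 with odor. Haus1 and Smc1b were lower in each odor library than in any water library, while Mnd1 varied more between genotypes than with treatment.

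Chat, the acetylcholine-synthesizing enzyme that marks a class of microvillous cells, was 3.19, 4.05 and 2.01 with water and 0.778, 1.03 and 0.665 with odor, from 3 to 22 reads. Trpm5 and Plcb2, from the same list of microvillous markers, were instead higher in all 3 pairs. Their log2 effects were 0.36, 0.58 and 0.22 and 0.24, 0.78 and 0.37 in turn, from 20 to 99 and 28 to 122 reads. Of the 14 lower genes, Ankdd1b, Pabpc5, Papolb and Rex2 had low values like Chat, at no more than 13.3 in any library and with 1 to 67 reads. Pabpc5 and Papolb belong to the families of poly(A)-binding proteins and poly(A) polymerases. Just outside the 2-fold limit, Deb1 was 135, 128 and 121 with water and 68.7, 55.9 and 39.2 with odor, with log2 effects of -0.97, -1.18 and -1.62 (-1.26 ± 0.19, limma adjusted p = 0.819). It had more reads than most of the 14 (40 to 163), and all odor libraries were below all water libraries. Zfp955b, a zinc finger gene, at 113, 94.9 and 101 with water and 52.9, 52.7 and 60.3 with odor, and Eef1e1, a translation factor of the aminoacyl-tRNA synthetase complex, at 118, 152 and 136 with water and 69.6, 70.7 and 78.3 with odor, were lower by 1.5-fold or more in every pair.

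**Figure D4:**
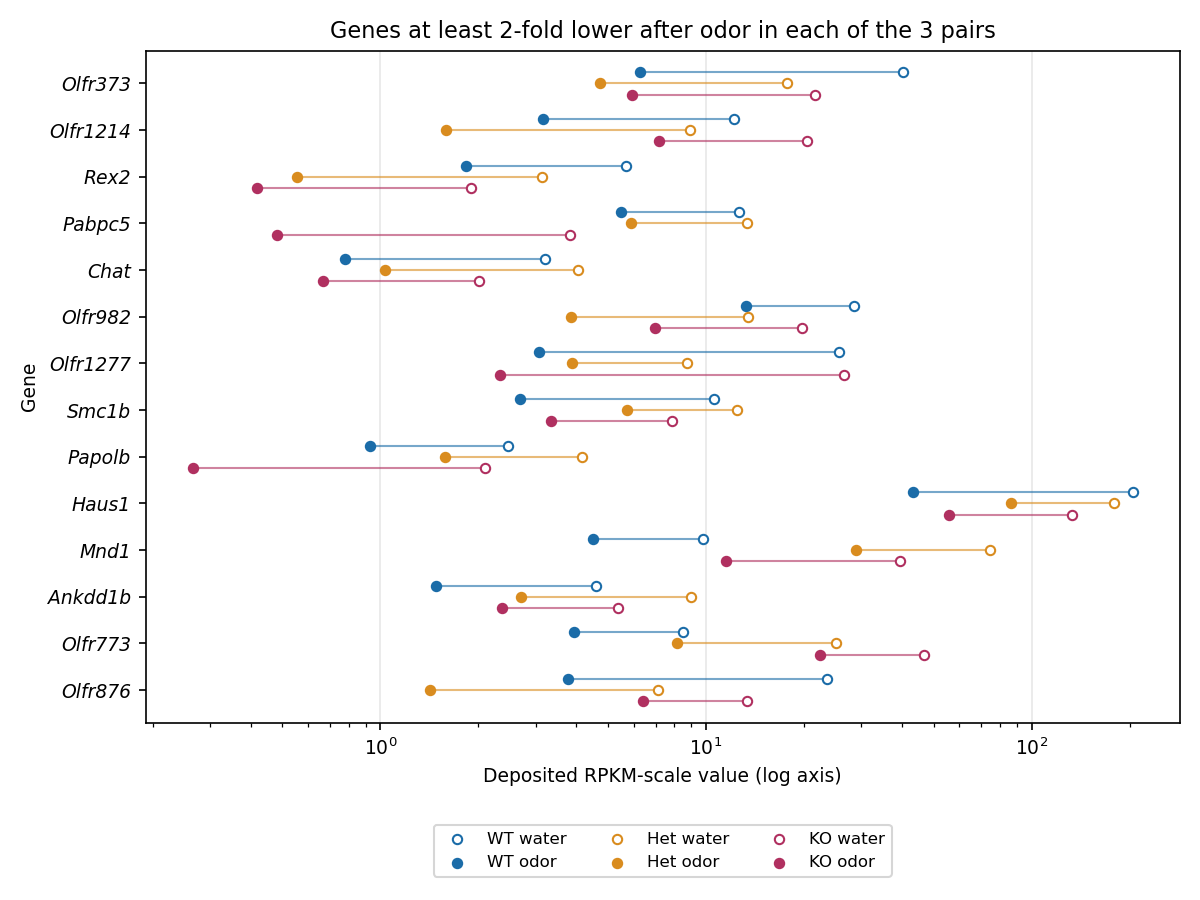
Deposited RPKM-scale values (log axis) of the 14 genes at least 2-fold lower with odor in each pair, drawn as in the plot of the higher genes. Water and odor values do not overlap for 11 of the 14 genes (4.75% of all genes in this direction), which were chosen for lower values in every pair, and the values of Haus1, 43.1 to 204.6, are the highest.

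Gene length differed between the shared sets. Relative to the median gene (100%), as recovered from the ratio of reads to values, the 50 genes at least 1.5-fold lower had a median length of 31.1%, and the 95 higher genes 69.3%. When all genes were split into 5 equal groups by length, 14.4% of the shortest group and 8.70% of the longest were lower in all 3 pairs, and 8.90% and 20.9% were higher. The shortest group held 30 of the 50 lower genes. The median log2 effect of the shortest group was -0.06, -0.07 and -0.06, and that of the longest -0.01, 0.06 and 0.12. The part of length in the lower set was not tested.

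Subunits of oxidative phosphorylation, the mitochondrial respiratory chain and ATP synthase, were a large list with small shared differences. Of 75 nuclear-encoded subunits, 27 were lower in all 3 pairs (36.0%, against 11.9% of all genes) and 1, Sdha, was higher. None passed the test, and none was 1.5-fold lower in every pair. The median log2 effects were -0.11, -0.08 and -0.38, so KO was lowest. Ndufa4, of the terminal oxidase, was 3668, 5448 and 4055 with water and 2871, 3276 and 2427 with odor, Ndufa5, of complex I, was 73.7, 74.5 and 89.5 with water and 46.9, 52.7 and 57.8 with odor, and Atp5k, of ATP synthase, was 929, 1209 and 989 with water and 704, 887 and 454 with odor. In these 3 genes all odor libraries lay below all water libraries. The median length of the list was 35.0% of the median gene, against 31.1% for the lower set.

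Odorant receptors did not share a direction across pairs. Of 579 intact receptor genes measured, 64 were lower in all 3 pairs (11.1%, against 11.9% of all genes), 15 higher (2.59%, against 15.6%) and 500 mixed, with none past the test. Receptors with no reads in some library are not among the deposited values and could not be counted. The median log2 effect of the receptors was -1.03, -0.92 and 0.74. The summed value of all receptors was 22061, 11210 and 16138 with water and 10881, 6094 and 27172 with odor. The sum and Omp were both lowest in Het odor, and both were highest in WT water and KO odor. The part of neuron content in the receptor values was not tested.

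A few receptors were lower in KO as well. At least 1.5-fold in every pair, 10 of the 579 were lower (1.73%, against 0.342% of all genes) and 2 higher (0.345%, against 0.651%), Olfr206 and Olfr1441. The receptor medians of -1.03 in WT and -0.92 in Het already lay beyond 1.5-fold, unlike those of all genes. The share of all genes is therefore not a like background for the 10. Olfr373 was 40.2, 17.7 and 21.5 with water and 6.25, 4.73 and 5.94 with odor, a log2 difference of -2.06 ± 0.31 by limma with an adjusted p of 0.819, from 5 to 40 reads. Olfr1214 was 12.2, 8.95 and 20.4 with water and 3.16, 1.59 and 7.19 with odor, and Olfr1277 was 25.7, 8.71 and 26.5 with water and 3.07, 3.87 and 2.33 with odor. Every odor library was below every water library for these 3 receptors.

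Olfr982, Olfr876 and Olfr773 completed the 2-fold set, with log2 effects of -1.08, -1.68 and -1.44, of -2.50, -1.99 and -1.001 and of -1.03, -1.56 and -1.05. Olfr876 lay just inside the 2-fold limit in KO. Each of the 6 had at most 40 reads in any library, and receptor genes with near copies can share reads, so single receptor values are uncertain. In the sorted neurons 506 of the 579 receptors had a value. Of the 6, Olfr1214, Olfr1277 and Olfr876 had one, and Olfr373, Olfr982 and Olfr773 had none.

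**Figure D5:**
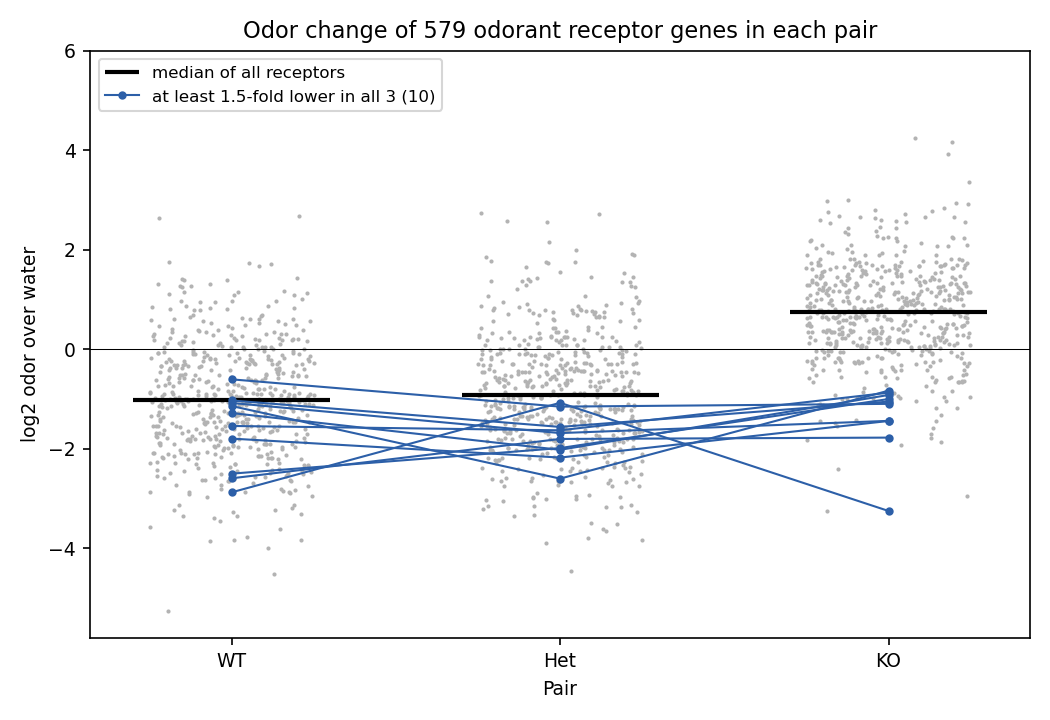
Log2 odor over water of 579 odorant receptor genes (grey points) in each pair, with black bars at the medians and blue lines joining the 10 receptors at least 1.5-fold lower in all 3 pairs. The medians are -1.03 in WT, -0.92 in Het and 0.74 in KO, and the 10 joined receptors were chosen for low values in every pair.

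Receptors reported to respond to the odorants used, or to closely related ones, were looked at by name, and 5 of the 7 listed were measured. None was higher or lower in all 3 pairs, and none passed the test. Olfr2, a receptor for octanal and other aldehydes, was 71.5, 10.4 and 57 with water and 22.1, 14.3 and 62 with odor. Olfr145 was 113, 18.6 and 47.2 with water and 39.3, 18.4 and 69.4 with odor, Olfr1477 was 71.7, 8.47 and 12.7 with water and 23.3, 2.03 and 28.6 with odor, and Olfr749 and Olfr151 stayed under 13 throughout. In WT the first 3 were lower with odor by more than the receptor median of -1.03, with log2 effects of -1.67, -1.51 and -1.60. In Het, where the receptor median was -0.92, their log2 effects were 0.44, -0.01 and -1.82. In KO their effects of 0.12, 0.55 and 1.14 were positive, as was the receptor median of 0.74. Of 11 trace amine-associated receptors, a separate family of olfactory receptors, Taar5 was higher in all 3 pairs (9.09%, against 15.6% of all genes) and none lower. In WT, Taar5 had 4 reads with water and 4 with odor, and a log2 effect of 0.04.

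Of 21 genes of odor signal transduction measured, 2 were higher in all 3 pairs (9.52%, against 15.6% of all genes) and 3 lower (14.3%, against 11.9%), with none past the test. The higher genes were the phosphodiesterases Pde4a, at 305, 161 and 283 with water and 359, 233 and 412 with odor, and Pde2a, with log2 effects of 0.25, 0.52 and 0.36. The lower genes included the receptor kinase gene Adrbk2 and the kinase gene Camk4, with log2 effects of -0.01, -0.35 and -0.22 and of -0.36, -0.26 and -0.04. Cnga2, a subunit of the olfactory cation channel, had -0.17, -0.29 and 0.54, higher in KO and lower in WT and Het. Of 17 genes of receptor expression and trafficking, Kdm1a and Lbr were higher in all 3 pairs (11.8%, against 15.6% of all genes) and none lower.

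Cell type markers give the tissue content beside the gene groups above. Of 22 markers of mature olfactory neurons, Faim2 and Pde4a were higher in all 3 pairs (9.09%, against 15.6% of all genes). Ncam2 was lower (4.55%, against 11.9%), and the list's median log2 effects were -0.21, -0.34 and 0.32. None of 17 immature neuron markers was higher in all 3 pairs and 1, Stmn4, was lower (5.88%). Of 18 globose basal and progenitor markers, 3 were higher in all 3 pairs (16.7%, near the share of all genes) and 1 was lower (5.56%). The part of neuron content in the values of Fos, Egr1 and the other shared genes was not tested.

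Several lists of non-neuronal markers held more shared higher members. Of 15 sustentacular markers, 7 were higher in all 3 pairs (46.7%, against 15.6% of all genes) and 1, Ermn, lower, with median log2 effects of 0.59, 0.43 and 0.28. They included Krt8 and Krt18, keratins of simple epithelia, with Krt8 at 539, 576 and 568 with water and 1163, 1025 and 689 with odor, and Muc2, a mucin, at 938, 879 and 983 with water and 1619, 1189 and 1784 with odor. Notch2, Notch3 and the Notch target Hes1, which is also an early gene, had log2 effects of 0.63, 0.64 and 0.29, of 0.91, 0.43 and 0.70 and of 1.23, 0.52 and 0.33. For Krt8 and Muc2 each odor library was above each water library. The summed value of the list was 33608, 42491 and 42768 with water and 52991, 49542 and 41965 with odor, so it was not higher in KO.

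Of 11 microvillous cell markers, 7 were higher in all 3 pairs (63.6%, against 15.6% of all genes). Chat was lower (9.09%, against 11.9%), and the list's median log2 effects were 0.49, 0.41 and 0.48. Foxi1 and Ascl3, transcription factors of microvillous and gland duct cells, were 69.4, 113 and 107 with water and 106, 168 and 196 with odor and 60.6, 136 and 133 with water and 230.1, 178 and 203 with odor in turn. Itpr3, a calcium release channel, was 47.9, 49.7 and 49.3 with water and 74.9, 85.1 and 68.7 with odor. The summed list was 228, 379 and 342 with water and 478, 523 and 562 with odor, so every odor library was above every water library. The part of microvillous cells in other results was not tested.

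Of 12 Bowman gland markers, 4 were higher in all 3 pairs (33.3%, against 15.6% of all genes) and none lower. Gpx6, an olfactory glutathione peroxidase, was 1885, 2575 and 2263 with water and 4197, 3991 and 3398 with odor, and Sox9, a gland progenitor factor, was 57.6, 77.3 and 64.8 with water and 114, 143 and 80.6 with odor. The median log2 effect was 1.19, 0.34 and 0.06, and WT water had the lowest summed gland value, 50419 against 85439 to 151422 in the other libraries. Of 10 horizontal basal cell markers, Itgb4 was higher in all 3 pairs (10%, against 15.6% of all genes), and the medians were 0.56, 0.73 and -0.57.

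Among blood-derived cells, 7 of 15 neutrophil markers were higher in all 3 pairs (46.7%, against 15.6% of all genes) and none lower. Their median log2 effects were 1.21, 0.82 and 0.03. S100a8, a granulocyte calcium-binding protein, was 899.8, 1813 and 1415 with water and 1562, 2982 and 1761 with odor, and Ltf, the granule protein lactoferrin, which glands also secrete, was 295, 438 and 547 with water and 2085, 774 and 779.7 with odor. The summed neutrophil value was 2332, 4623 and 4437 with water and 6141, 8165 and 4756 with odor. In each genotype the odor library held more, and the KO values differed little. The part of neutrophils in Ly6g, Il1b and other genes above was not tested. Of 14 macrophage markers, Fcer1g, Ctss and C1qb were higher in all 3 pairs (21.4%, against 15.6% of all genes) and none lower. Of 14 bone and cartilage markers, 4 were lower in all 3 pairs (28.6%, against 11.9% of all genes) and 1 higher, with median log2 effects of -0.01, 0.05 and -0.87.

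The remaining marker lists had 1 to 4 shared members each and none past the test, where 15.6% of all genes were higher and 11.9% lower. Of 12 respiratory ciliated cell markers, 2 were lower in all 3 pairs (Capsl and Ccdc39) and none higher. Of 13 glial markers, Erbb3 and Prx were higher and S100b and Fabp7 lower. Of 16 endothelial and mesenchymal markers, Pdgfrb and Pdgfra were higher and Tek lower. Of 9 erythroid markers, Slc4a1 and Car1 were higher. Of 7 T and B cell markers, Cd40lg was higher and the B cell gene Cd79a lower, and of 8 muscle markers Des was higher.

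Levels of the leading genes in sorted mature sensory neurons of the same 3 genotypes are given as pooled values per genotype from 2 libraries each. Cyp2a5, from the list of sustentacular markers, also had values there (92.6, 57.3 and 56.2), so a value does not by itself place a transcript in neurons. Fos was 641, 614 and 499, Egr1 226, 280.1 and 224, Fosb 459.6, 417 and 270.5 and Nr4a1 389, 309.6 and 368 in WT, Het and KO neurons. Exposure of those mice to an odor is not stated, and the sort was not part of the comparison here. Any effect of the sort itself on these genes was not tested. Sorted neurons also held Btg2 at 182, 234 and 324 and Pcdh10 at 223, 247 and 199. Nr4a2 was at 3.21, 4.24 and 5.1, and Cd40lg, Ly6g and Mat1a had no value there. Of the 27 genes at least 2-fold higher, 24 had a value in sorted neurons, and of the 14 lower genes 8 had one. Some of the 24, such as Pilra and Egr2, had low values in WT neurons. The counts were not compared with the share of all tested genes that had a value there. They do not place either set in neurons. The 2 tables were normalized separately, and the WT and KO neuron libraries were made with different kits, so levels were not compared between them.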

How the data were processed

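RNA-seq of ribosome-depleted RNA was analysed in 6 whole-epithelium libraries, all made with NuGEN Encore Complete from 100 ng of RNA per the labels. The authors deposited 1 table of RPKM values for 14613 genes, and a second of pooled values per genotype for sorted neurons, with 14744 genes with values. The submitters' processing notes name STAR 2.3.0, featureCounts, DESeq, Picard 1.64 and Bowtie2 2.1 and the builds NCBIM37 and mm9. Their order, the counting of strand and shared reads, and the exact RPKM formula are not given in the sources used here.

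Values of 0.5 or more in at least 2 libraries kept 14602 genes. Log2(value + 0.5), a scale that understates changes of low genes, was fitted with limma 3.58.1 in R 4.3.3 (genotype as a block, mean-variance trend, two-sided, Benjamini-Hochberg adjustment over all genes). Whole reads were recovered from the ratios between libraries for 100% of genes at a relative tolerance of 1e-05, up to a divisor that all 6 read numbers of a gene share, so a read number is the smallest the ratios allow. They served for depth, relative gene length and a limma voom alternative. The limma fit and the recovery of reads were tested on simulated data. The labels do not give the number of animals behind a library. No 2 of the 6 libraries shared both genotype and treatment, so they came from different animals. The p-values cover the spread of the odor effect among the 3 pairs. With 1 pair per genotype, that spread holds animal and technical variation and any dependence of the odor effect on genotype. These cannot be told apart.

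The comparison, the lists and their members were chosen with earlier results of these data known. The text names genes past the test, the first 25 higher and 15 lower genes at 2-fold with a value of 1 or more in at least 3 libraries, up to 6 members per list in the shared direction and 3 in the other, the receptors of the exposed odors, Dnmt3a and the 10 smallest p-values in each direction. Genes named beside these (such as Atf3, Ier2, Npas4, Nr4a2, Tle3, Uncx, Hspb1 and Omp) were picked after their values were seen. Alternatives were another pseudocount, filter, scaling, variance model or test, no genotype block, and each pair left out. Some genes that the rule would name are not reported here.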

Additional observations from a re-analysis of the deposited data

Results flagged for a closer look

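In 6 of the gene lists with 10 or more measured members, the median log2 odor effect was above 0.3 in 1 genotype pair and below -0.3 in another. With 1 pair per genotype none of these differences was tested. Odorant receptors had a median of 0.74 in KO and -1.03 in WT, a difference of 1.77. Trace amine-associated receptors had 0.74 in KO and -0.67 in Het, a difference of 1.41. Horizontal basal cell markers, such as the keratins of stem cells on the basal lamina, had 0.73 in Het and -0.57 in KO, a difference of 1.30. Heat shock chaperones had 0.54 in WT and -0.35 in KO, a difference of 0.888. Respiratory ciliated cell markers had 0.37 in WT and -0.45 in Het, a difference of 0.815. Mature olfactory neuron markers had 0.32 in KO and -0.34 in Het, a difference of 0.658. Shorter lists had such opposite medians too. In the order WT, Het and KO, the 8 skeletal muscle markers had -0.58, 0.22 and 2.60, the 7 T and B cell markers 0.35, 0.49 and -1.03, and the 9 erythroid markers -0.32, 0.84 and -0.51.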

How the results depend on the processing

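The number of genes called higher, 2 in the reported fit, was 1 with median-ratio scaling, 1 with no genotype block, 0 with no mean-variance trend and 6 with limma voom on the recovered reads. It ranged from 0 to 4 when 1 pair was left out. Fos missed the threshold at limma adjusted p = 0.0519 with median-ratio scaling, and Egr1 at 0.0684 with no genotype block. By voom, Fosb, Nr4a1, Nr4a3 and Btg2 passed too (limma voom adjusted p = 0.00844, 0.0167, 0.0178 and 0.0255), and without the WT pair Fosb and Nr4a1 passed (0.0442 each). Of 507 values for 43 genes over 12 settings, 493 kept their direction and side of the threshold, 6 passed newly, 8 no longer passed and 0 reversed. The 8 were all values of Fos and Egr1, the 2 genes that passed in the reported fit. The other genes did not pass there, and most of the 43 were chosen for a direction shared by the pairs. The 493 were thus in part given in advance and do not measure how firm the 2 calls are.

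With a pseudocount of 1, 7 genes were at least 2-fold lower and 23 higher, all among the genes reported. With a mean value of 5 or more, 24 and 10 remained. With only 2 pairs to agree, when 1 was left out, 3632 to 4453 genes were higher and 3147 to 4167 lower at any fold, 303 to 485 and 221 to 534 at 1.5-fold, and 81 to 116 and 67 to 216 at 2-fold. No paired analysis was possible by replicate number because the whole-epithelium labels carry none and the sorted-neuron table holds 1 pooled value per genotype. The pairs of the reported fit are by genotype. Depth limits the 14 genes at least 2-fold lower, which other than Haus1 had at most 70 reads in any library.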
